A study of Homo sapiens with 8 samples.

Results

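The genes described here are CCL24 and 9 other chemokine genes that epithelial cells are known to transcribe: CCL20, CCL28, CXCL1, CXCL2, CXCL3, CXCL5, CXCL8, CXCL16 and CX3CL1. They were taken by symbol, and each had 1 probe set, so that 10 of 18404 measured genes were described, or 10 probe sets out of 19158 with a single gene symbol and 32321 in all. CCL24 was chosen by its measured log2 difference between TRIM44 siRNA 9 and negative siRNA in earlier results of these data. The other genes were chosen by name, with those results known. The values of CCL24 in every comparison are therefore given as a description, with no test. That holds for siRNA 7 minus negative too, because the choice also used the negative arrays. RNA came from HSC39, a cell line of human gastric signet ring cell carcinoma, and was measured on 8 whole-transcript arrays. The samples were 2 of cells with siRNA 9 against TRIM44, 2 with siRNA 7 against TRIM44 and 4 with "All stars negative" siRNA. Cells grew in RPMI with fetal calf serum, and the protocol gives 48 h of transfection with TRIM44 siRNA at 100 nM (written nm). It names no dose for the negative siRNA, and the series text calls the control cells untreated. The series text counts 4 biological replicates per condition, taking both TRIM44 reagents as 1 condition. Separate cultures are not named anywhere else, and each p-value reflects only how far these samples spread, part of which may be technical.

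Chemokines are small secreted proteins that draw leukocytes along a gradient through G protein-coupled receptors. Epithelial cells release them in response to microbial products and cytokines, and many of the CXC genes are switched on by NF-kappaB, a family of transcription factors held in the cytoplasm by inhibitors until a signal arrives. CCL24, also called eotaxin-2, binds CCR3 and attracts eosinophils, and its close relative CCL26 is induced by the type 2 cytokines IL-4 and IL-13 through the transcription factor STAT6.

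TRIM44, the targeted transcript, was lower with both reagents. Its log2 level was 11.10 and 11.14 with siRNA 9, 10.85 and 11.27 with siRNA 7, and 11.91, 12.02, 11.91 and 11.77 with negative siRNA. All 4 TRIM44 siRNA arrays lay below all 4 negative arrays. The log2 difference was -0.78 with siRNA 9 (limma adjusted p = 0.0155) and -0.84 with siRNA 7 (limma adjusted p = 0.0405). Between siRNA 9 and siRNA 7 TRIM44 differed by 0.06 (95% interval -0.24 to 0.36, limma adjusted p = 0.903). Array medians lay between 6.78 and 6.87. On the first principal component, negative array 2, at 13.6, lay near the siRNA 9 arrays, at 15.5 and 17.2, while the other 5 arrays lay between -11.8 and -5.57. Values without negative array 2 are given for some genes, among them genes in which it lay with the other negative arrays. That array was left out after it was seen near the siRNA 9 arrays, which can widen the differences of siRNA 9 from negative siRNA. These values and their p-values are therefore a description, with no test.

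The sequences just before the start sites are shown because they separate the members into genes with and without one form of the NF-kappaB binding site. They are the last 100 bases before the RefSeq start site on GRCh38.p14, written 5′ to 3′ along the gene, for the 5 CXC genes that hold GGAATTTCC and for both start sites of CCL24. Capitals mark GGAATTTCC. CXCL1 lies at chr4:73869293-73869392 on the plus strand, CXCL2 at chr4:74099196-74099295 on the minus strand and CXCL3 at chr4:74038690-74038789 on the minus strand. CXCL5 lies at chr4:73998678-73998777 on the minus strand and CXCL8 at chr4:73740469-73740568 on the plus strand. The CCL24 stretches lie at chr7:75823373-75823472 and chr7:75813807-75813906, both on the minus strand.
CXCL1: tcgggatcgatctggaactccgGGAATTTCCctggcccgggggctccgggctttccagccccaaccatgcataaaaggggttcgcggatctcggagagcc
CXCL2: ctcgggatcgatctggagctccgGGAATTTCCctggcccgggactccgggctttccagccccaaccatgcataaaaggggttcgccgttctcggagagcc
CXCL3: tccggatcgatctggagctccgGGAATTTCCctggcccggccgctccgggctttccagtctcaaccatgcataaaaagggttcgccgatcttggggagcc
CXCL5: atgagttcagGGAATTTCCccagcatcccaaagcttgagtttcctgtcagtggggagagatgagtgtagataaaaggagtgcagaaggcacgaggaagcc
CXCL8: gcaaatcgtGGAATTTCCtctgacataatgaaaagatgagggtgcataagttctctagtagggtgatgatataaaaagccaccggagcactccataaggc
CCL24 start site 1: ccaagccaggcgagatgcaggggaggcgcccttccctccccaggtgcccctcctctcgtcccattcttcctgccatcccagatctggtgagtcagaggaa
CCL24 start site 2: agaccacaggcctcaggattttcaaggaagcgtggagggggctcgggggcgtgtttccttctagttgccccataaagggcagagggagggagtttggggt

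Counted from the start site, the match began at -78 in CXCL1, -77 in CXCL2, -78 in CXCL3, -90 in CXCL5 and -91 in CXCL8. The search covered 250 bases before to 50 bases after each start, on both strands, and 8 of the 10 members had such a window in the RefSeq table. CXCL16 and CX3CL1 were not among them. GGAATTTCC occurred in 162 of all 35116 windows (0.4613%), and it was not found in the windows of CCL24, CCL20 and CCL28. It was searched as the form of the CXC promoters, so its presence in CXC genes follows from that choice. Other forms of the NF-kappaB site were not searched. A STAT6 form, TTC and GAA with any 4 bases between them, occurred in 2261 windows (6.439%) and in none of the 8 members. A match describes the letters only, and the absence of these letters in this window says nothing of either factor.

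CCL24 stood at 8.14 and 7.82 on the log2 scale with siRNA 9, at 6.79 and 6.70 with siRNA 7 and at 6.53, 6.82, 6.73 and 6.98 with negative siRNA. Both siRNA 9 arrays were above all 6 other arrays, and the siRNA 7 arrays lay inside the range of the negative arrays. The means were 7.98 ± 0.22 with siRNA 9 (SD, n = 2), 6.74 ± 0.06 with siRNA 7 (SD, n = 2) and 6.76 ± 0.19 with negative siRNA (SD, n = 4). In that order siRNA 7 and negative siRNA did not differ beyond their spread. The log2 difference of siRNA 9 from negative siRNA, the one that chose the gene, was 1.22 (SE 0.13), a 2.33-fold higher level. It was 1.24 without negative array 2, whose CCL24 level lay among those of the other negative arrays, and lay between 1.06 and 1.38 when single arrays were left out. With siRNA 7 the log2 difference from negative siRNA was -0.02 (SE 0.13, 95% interval -0.31 to 0.26). Between siRNA 9 and siRNA 7 the log2 difference was 1.24 (SE 0.15). Taking both reagents as 1 condition gave a log2 difference of 0.60, with the arrays of the 2 reagents at separate levels. These comparisons share the negative or the siRNA 9 arrays. In a bulk sample, more cells with a transcript and more transcript per cell cannot be told apart.

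**Figure D1:**
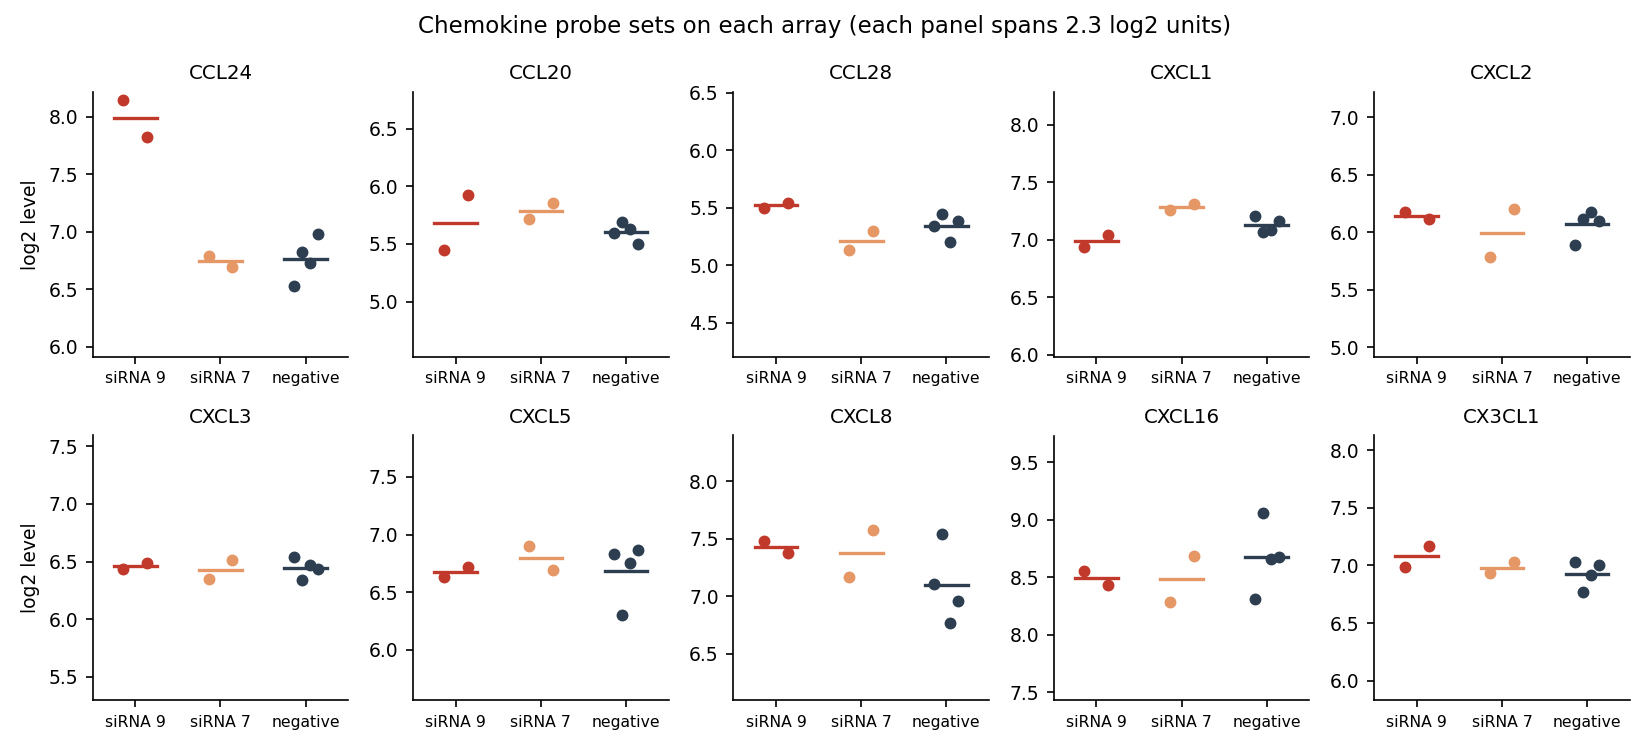
Log2 level of each chemokine probe set on each of the 8 arrays, with siRNA 9, siRNA 7 and negative siRNA side by side; points are arrays and bars are group means. CCL24 stands at 8.14 and 7.82 with siRNA 9 and at or below 6.98 on the other arrays, while the groups of the other 9 members lie close together.

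Among the other CC chemokines, CCL28, a mucosal ligand of CCR10, had levels of 5.50 and 5.54 with siRNA 9, 5.13 and 5.29 with siRNA 7 and 5.34, 5.45, 5.20 and 5.39 with negative siRNA. The siRNA 9 arrays were above all others. Its log2 difference was 0.18 for siRNA 9 minus negative (SE 0.10, limma adjusted p = 0.484), -0.13 for siRNA 7 minus negative (limma adjusted p = 0.880) and 0.31 for siRNA 9 minus siRNA 7 (SE 0.11, limma adjusted p = 0.198), so none passed the threshold of 0.05. CCL20, the ligand of CCR6, which dendritic cells and a class of helper T cells carry, stood at 5.45 and 5.92 with siRNA 9, 5.72 and 5.85 with siRNA 7 and 5.60, 5.70, 5.63 and 5.50 with negative siRNA. The siRNA 9 arrays lay on either side of the negative ones, and both siRNA 7 arrays lay just above them. Its log2 difference was 0.08 for siRNA 9 minus negative (limma adjusted p = 0.869) and 0.18 for siRNA 7 minus negative (limma adjusted p = 0.871).

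The CXC chemokines that attract neutrophils through CXCR2 did not pass the threshold in any comparison. CXCL1 had 6.94 and 7.04 with siRNA 9, 7.26 and 7.31 with siRNA 7 and 7.21, 7.07, 7.09 and 7.16 with negative siRNA. The siRNA 9 arrays were below all negative arrays and the siRNA 7 arrays above them. The log2 difference was -0.14 for siRNA 9 minus negative (limma adjusted p = 0.569), 0.15 for siRNA 7 minus negative (limma adjusted p = 0.800) and -0.29 for siRNA 9 minus siRNA 7 (SE 0.10, limma adjusted p = 0.175). CXCL8, or interleukin 8, which also binds CXCR1, had 7.48 and 7.38 with siRNA 9, 7.17 and 7.58 with siRNA 7 and 7.11, 7.54, 6.77 and 6.96 with negative siRNA. The groups overlapped, because negative array 2 lay at the level of the TRIM44 siRNA arrays. Its log2 difference was 0.33 for siRNA 9 minus negative (SE 0.18, 95% interval -0.06 to 0.73, limma adjusted p = 0.471) and 0.28 for siRNA 7 minus negative (SE 0.18, limma adjusted p = 0.850). Without negative array 2 these were 0.48 (limma adjusted p = 0.0585) and 0.43 (limma adjusted p = 0.261), and with the replicate number as a block they were 0.10 and 0.05.

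CXCL2, CXCL3 and CXCL5 showed no separation of the groups. CXCL2 had 6.18 and 6.11 with siRNA 9, 5.78 and 6.20 with siRNA 7 and 5.89 to 6.18 with negative siRNA. CXCL3 had 6.44 and 6.49 with siRNA 9, 6.35 and 6.51 with siRNA 7 and 6.34 to 6.54 with negative siRNA. CXCL5 had 6.63 and 6.72 with siRNA 9, 6.90 and 6.69 with siRNA 7 and 6.30 to 6.86 with negative siRNA. CXCL1, CXCL2 and CXCL3 are close paralogs, so probes could respond to more than 1 of them. The log2 differences of these 3 genes from negative siRNA ran from -0.14 to 0.15 over both reagents, and those of CXCL5 were -0.01 with siRNA 9 and 0.11 with siRNA 7. The 5 genes with the GGAATTTCC letters shown above thus had values on both sides of 0 with siRNA 9, with CXCL8 at 0.33 and CXCL1 at -0.14.

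CXCL16 and CX3CL1 (fractalkine) are made as membrane-bound proteins and released by the sheddases ADAM10 and ADAM17. CXCL16, the ligand of CXCR6, had 8.55 and 8.43 with siRNA 9, 8.28 and 8.68 with siRNA 7 and 8.31, 9.06, 8.66 and 8.68 with negative siRNA. CX3CL1, the ligand of CX3CR1, had 6.99 and 7.17 with siRNA 9, 6.93 and 7.03 with siRNA 7 and 7.03, 6.77, 6.92 and 7.00 with negative siRNA. In both genes the groups overlapped. The log2 difference of CXCL16 was -0.18 with siRNA 9 (limma adjusted p = 0.743) and -0.19 with siRNA 7 (limma adjusted p = 0.932), and negative array 2 was its highest array. Without that array it was -0.05 with siRNA 9 and -0.07 with siRNA 7. CX3CL1 differed by 0.15 with siRNA 9 (limma adjusted p = 0.612) and by 0.05 with siRNA 7 (limma adjusted p = 0.992).

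Over the 9 members other than CCL24, 0 of 9 passed a limma adjusted p of 0.05 for siRNA 9 minus negative, where 0.924% of all 19158 probe sets passed, and 0 of 9 had an unadjusted p under 0.05, against 13.6% of all. Of the 9, 6 were higher and 3 lower with siRNA 9, with a median log2 difference of 0.08 beside 0.02 over all probe sets. The groups did not overlap for 2 of 9 (CCL28 and CXCL1), against 22.7% of all probe sets. For siRNA 7 minus negative, 0 of 9 passed in limma, where 0.0679% of all probe sets did, and 0 of 9 had an unadjusted p under 0.05, against 7.46% of all. The groups did not overlap for 2 of 9 (CCL20 and CXCL1), against 14.4% of all. For siRNA 9 minus siRNA 7, 0 of 9 passed, against 2.23% of all, 2 of 9 had an unadjusted p under 0.05 (CCL28 and CXCL1), against 15.7% of all, and 2 of 9 did not overlap, against 48.6% of all. With both reagents as 1 condition, 0 of 9 passed, where 0.00522% of all did, and 0 of 9 had an unadjusted p under 0.05, against 5.43% of all. The groups did not overlap for 0 of 9, against 2.86% of all. With 2 arrays of each reagent, the number of arrays limits the precision, and the intervals of the 9 genes reached from -0.56 to 0.73 for siRNA 9 minus negative.

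**Figure D2:**
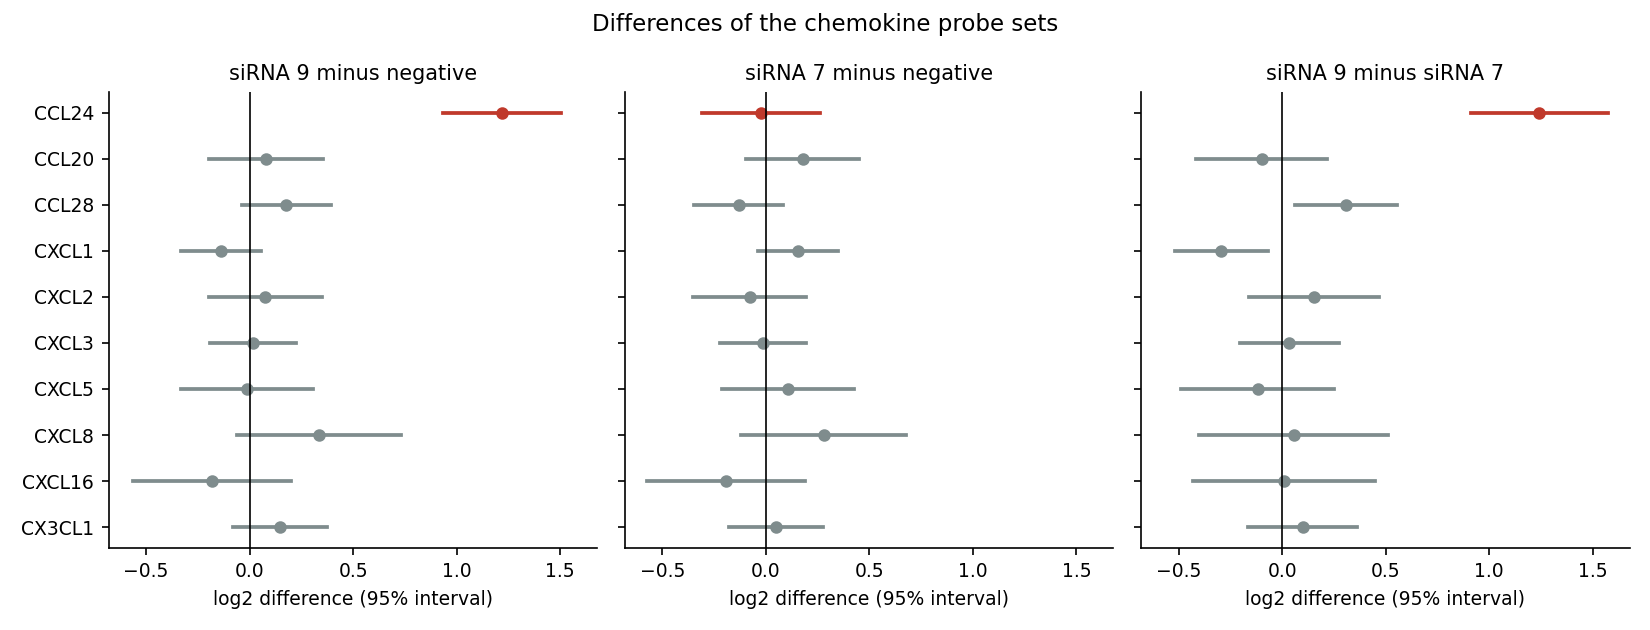
Log2 difference of each chemokine probe set in 3 comparisons, with the 95% interval of the fit. CCL24 stands at 1.22 for siRNA 9 minus negative and -0.02 for siRNA 7 minus negative, and the intervals of the other 9 members include 0 in both.

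On the negative arrays, 9 of the 10 members had probe sets below the median of the 19158, with 15.4% to 43.5% of probe sets dimmer, and CXCL16 lay above it, with 67.9% dimmer. Brightness depends on the probes and is no amount of RNA, and signal over background is not given, so dim and absent cannot be told apart.

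The receptors of these chemokines gave no call, and 7 of 8 were measured, CCR3 not among them. Their log2 differences with siRNA 9 were 0.05 for CCR6, -0.04 for CCR10, 0.03 for CXCR1, 0.11 for CXCR2, -0.08 for CXCR6, 0.16 for CX3CR1 and 0.01 for ACKR1, a decoy receptor. With siRNA 7 they ran from -0.18 for CXCR1 to 0.09 for CXCR6. Of 24 measured other chemokine ligands, 0 passed in either reagent, where 0.924% of all probe sets passed with siRNA 9 and 0.0679% with siRNA 7. CCL26, or eotaxin-3, which lies beside CCL24 in the RefSeq gene order and also binds CCR3, stood at 6.05 and 6.09 with siRNA 9, 5.79 and 5.87 with siRNA 7 and 5.80, 5.65, 5.48 and 5.69 with negative siRNA. Both siRNA 9 arrays were above all negative arrays. Its log2 difference was 0.41 with siRNA 9 (SE 0.10, limma adjusted p = 0.0921) and 0.18 with siRNA 7 (limma adjusted p = 0.806), and 0.41 without negative array 2 (limma adjusted p = 0.0450). CXCL17, a mucosal chemokine, differed by 0.26 with siRNA 9 (limma adjusted p = 0.220) and by 0.02 with siRNA 7 (limma adjusted p = 0.998). XCL1, or lymphotactin, differed by -0.35 with siRNA 9 (limma adjusted p = 0.425) and by -0.36 with siRNA 7 (limma adjusted p = 0.734). Both siRNA 7 arrays of XCL1 lay below all negative arrays. XCL1 had 2 probe sets, and that of highest mean is given.

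**Figure D3:**
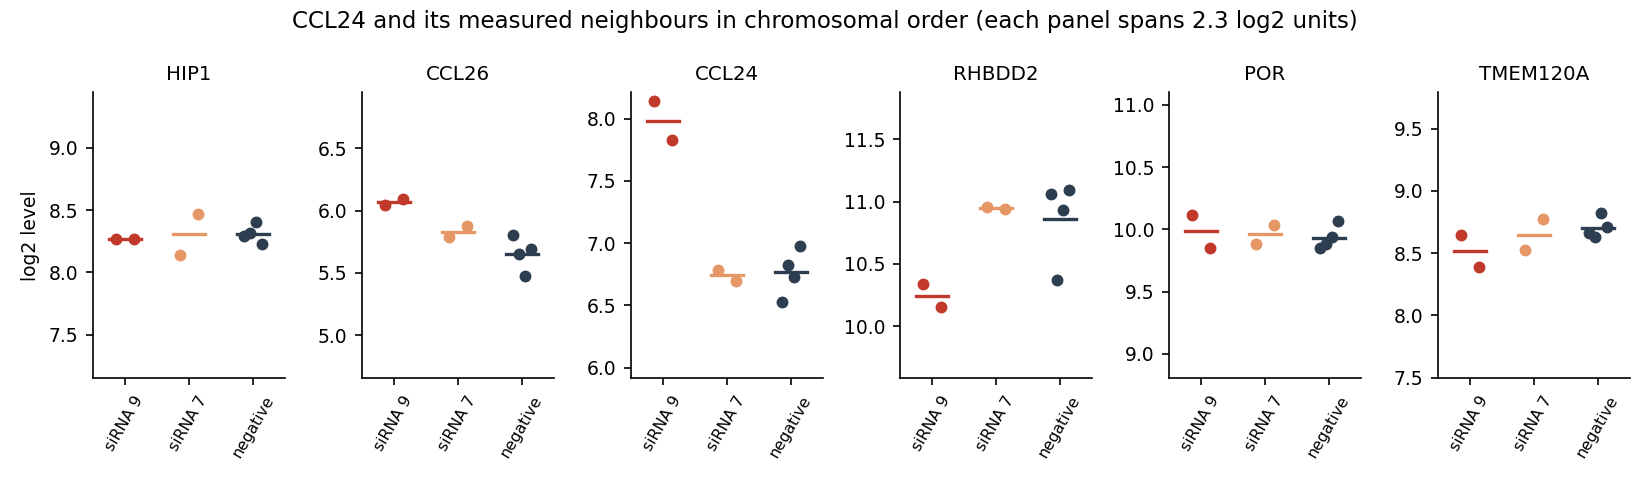
Log2 level, on each of the 8 arrays, of CCL24 and of the measured genes beside it in RefSeq order. CCL24 and CCL26 are higher on the siRNA 9 arrays, at log2 differences of 1.22 and 0.41 from negative siRNA, and RHBDD2 is lower there, at -0.62, and on negative array 2.

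The other measured genes near CCL24 had log2 differences of -0.04 (HIP1), 0.05 (POR) and -0.19 (TMEM120A) for siRNA 9 minus negative, none past the threshold. RHBDD2, a rhomboid-family gene on the other side of CCL24, had 10.34 and 10.15 with siRNA 9, 10.96 and 10.94 with siRNA 7 and 11.06, 10.37, 10.93 and 11.10 with negative siRNA. Negative array 2 lay with the siRNA 9 arrays. Its log2 difference was -0.62 with siRNA 9 (SE 0.17, limma adjusted p = 0.128), and -0.78 without negative array 2 (limma adjusted p = 0.00169). That array was left out for lying near the siRNA 9 arrays, so the last value and its p-value are a description. RHBDD2 was also named after its values were seen.

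Of 91 measured pathway genes, 97 being listed, 0 passed the limma threshold for siRNA 9 minus negative, where 0.924% of all probe sets did. For siRNA 7 minus negative 0 passed, against 0.0679% of all. For siRNA 9 minus siRNA 7, 4 passed, against 2.23% of all, and all 4 were higher with siRNA 9. The lists were chosen with earlier results of these data known, so these counts and shares are no independent comparison. Other settings called 0 to 10 of the 91 for siRNA 9 minus negative. The 10 were with array weights, in a fit that called 2082 of all 19158 probe sets. For siRNA 7 minus negative the other settings called 0 to 1, where ZFP36L1 passed in 2 settings. Without negative array 2, 7 passed for siRNA 9 minus negative, in a fit that called 5.57% of all probe sets. That array was left out for lying near the siRNA 9 arrays, so these 7 are a description. These were CCL26, TNFAIP3, MAP3K14, IL1A and TLR3, higher with siRNA 9, and TNFRSF1A and STAT6, lower. Medians of the lists for siRNA 9 minus negative were 0.03 for receptors, 0.03 for other ligands, 0.09 for the NF-kappaB pathway, 0.03 for inflammatory inducers, -0.02 for the IL-4 and IL-13 pathway and -0.02 for sheddases and mRNA decay factors, beside 0.02 over all probe sets.

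**Figure D4:**
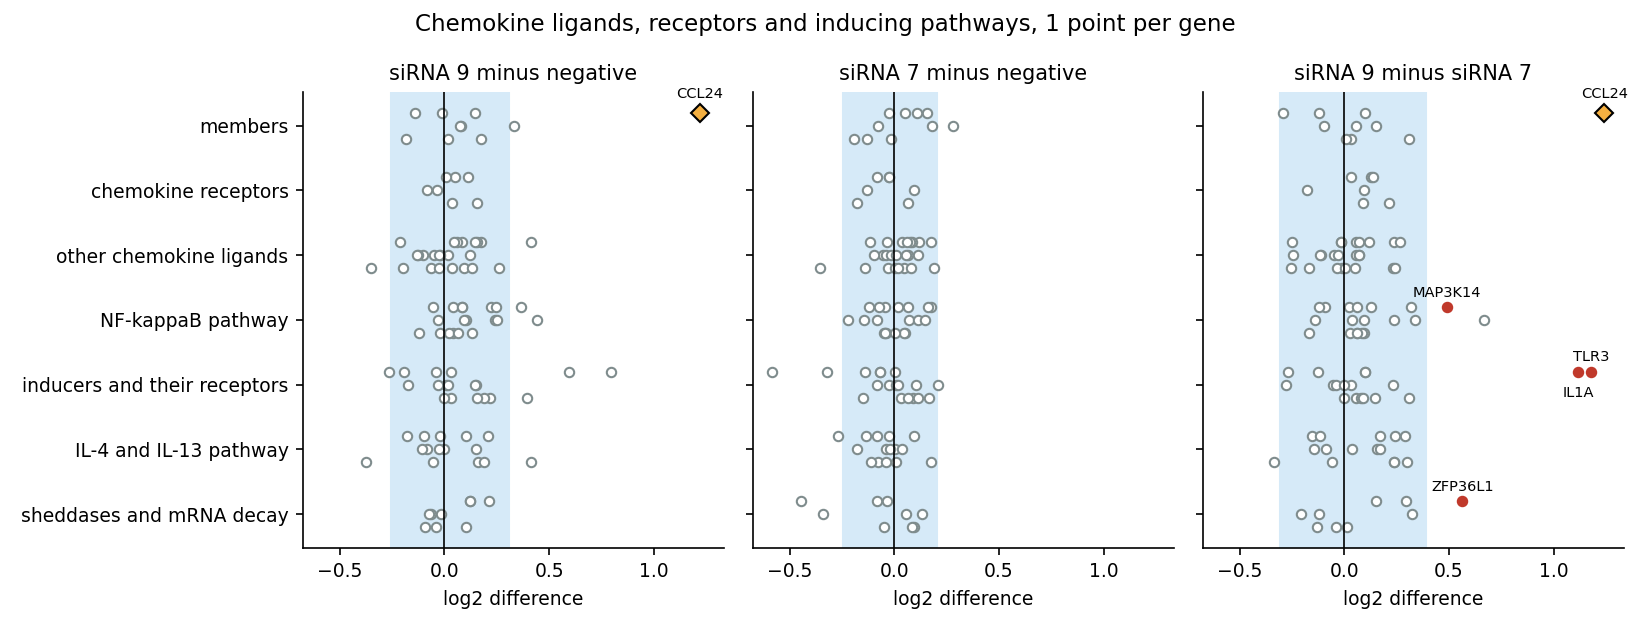
Log2 differences of the members and of 6 gene lists in 3 comparisons, 1 point per gene; the band spans the central 90% of all probe sets. Filled red points passed a limma adjusted p of 0.05, and the CCL24 diamond is a description with no test. In siRNA 7 minus negative CCL24 is drawn as an open point among the members, and it is a description there too. The 4 filled points, MAP3K14, IL1A, TLR3 and ZFP36L1, are in siRNA 9 minus siRNA 7.

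IL1A, an interleukin-1 cytokine that induces CXC chemokines, stood at 6.14 and 6.18 with siRNA 9, 5.19 and 4.90 with siRNA 7 and 5.03, 6.03, 5.21 and 5.19 with negative siRNA. Both siRNA 9 arrays were above all others, with negative array 2 close to them. The log2 difference was 1.12 for siRNA 9 minus siRNA 7 (SE 0.25, limma adjusted p = 0.0457), 0.80 for siRNA 9 minus negative (limma adjusted p = 0.124) and -0.32 for siRNA 7 minus negative (limma adjusted p = 0.863). Without negative array 2, IL1A was 1.02 higher with siRNA 9 than with negative siRNA on the log2 scale (limma adjusted p = 0.000854), and with siRNA 7 it differed by -0.10 (limma adjusted p = 0.796). TLR3, the receptor of double-stranded RNA in endosomes, had 6.25 and 5.84 with siRNA 9, 5.14 and 4.59 with siRNA 7 and 5.16, 5.84, 5.31 and 5.48 with negative siRNA. Negative array 2 lay at the lower siRNA 9 level, and both siRNA 7 arrays were below all negative arrays. Its log2 difference was 1.18 for siRNA 9 minus siRNA 7 (SE 0.23, limma adjusted p = 0.0239), 0.59 for siRNA 9 minus negative (limma adjusted p = 0.190) and -0.58 for siRNA 7 minus negative (limma adjusted p = 0.448). Without negative array 2 the last 2 were 0.73 (limma adjusted p = 0.0291) and -0.45 (limma adjusted p = 0.348). For IL1A and TLR3 the values without that array, and their p-values, are a description. MAP3K14, the kinase NIK of the noncanonical NF-kappaB pathway, had 7.93 and 7.77 with siRNA 9, 7.41 and 7.32 with siRNA 7 and 7.53, 7.42, 7.53 and 7.47 with negative siRNA. Its siRNA 9 arrays lay above all others, at a log2 difference of 0.49 for siRNA 9 minus siRNA 7 (SE 0.11, limma adjusted p = 0.0370) and 0.37 for siRNA 9 minus negative (limma adjusted p = 0.0930). ZFP36L1, which promotes decay of AU-rich mRNAs, had 10.03 and 9.97 with siRNA 9, 9.49 and 9.38 with siRNA 7 and 9.93, 9.88, 9.85 and 9.86 with negative siRNA. Here the siRNA 7 arrays were the ones apart, so that ZFP36L1 was 0.56 higher with siRNA 9 than with siRNA 7 on the log2 scale (SE 0.10, limma adjusted p = 0.0179) and 0.12 higher than with negative siRNA (limma adjusted p = 0.621). The 4 calls ended without siRNA 9 array 1, without siRNA 9 array 2 and without siRNA 7 array 2. IL1A and MAP3K14 also lost theirs without siRNA 7 array 1 and without negative array 3, IL1A without negative array 4 and MAP3K14 without negative array 1.

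TNFAIP3, an NF-kappaB target that limits the pathway, had 6.81 and 6.65 with siRNA 9, 6.06 and 6.07 with siRNA 7 and 6.03, 6.75, 6.12 and 6.26 with negative siRNA. Its log2 difference from negative siRNA was 0.44 with siRNA 9 (limma adjusted p = 0.250) and 0.60 without negative array 2 (limma adjusted p = 0.00677). Negative array 2 lay with the siRNA 9 arrays here, so the value without it is a description. STAT6 had 9.61 and 9.54 with siRNA 9, 10.01 and 9.81 with siRNA 7 and 9.93, 9.97, 9.94 and 9.95 with negative siRNA. The siRNA 9 arrays were below all others, at a log2 difference of -0.37 from negative siRNA (limma adjusted p = 0.0854) or -0.37 without negative array 2 (limma adjusted p = 0.0406). Among the sheddases, ADAM10 differed by 0.21 with siRNA 9 (limma adjusted p = 0.319) and ADAM17 by -0.02 (limma adjusted p = 0.972). With siRNA 7 both ADAM17 arrays, at 8.52 and 8.49, were below all negative arrays, at a log2 difference of -0.34 (limma adjusted p = 0.342). The remaining genes named by the same rule, TRAF6, IL1RN and IL13RA1, differed from negative siRNA by 0.25, 0.40 and -0.10 with siRNA 9 and by -0.08, 0.09 and -0.27 with siRNA 7, and none passed.

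**Figure D5:**
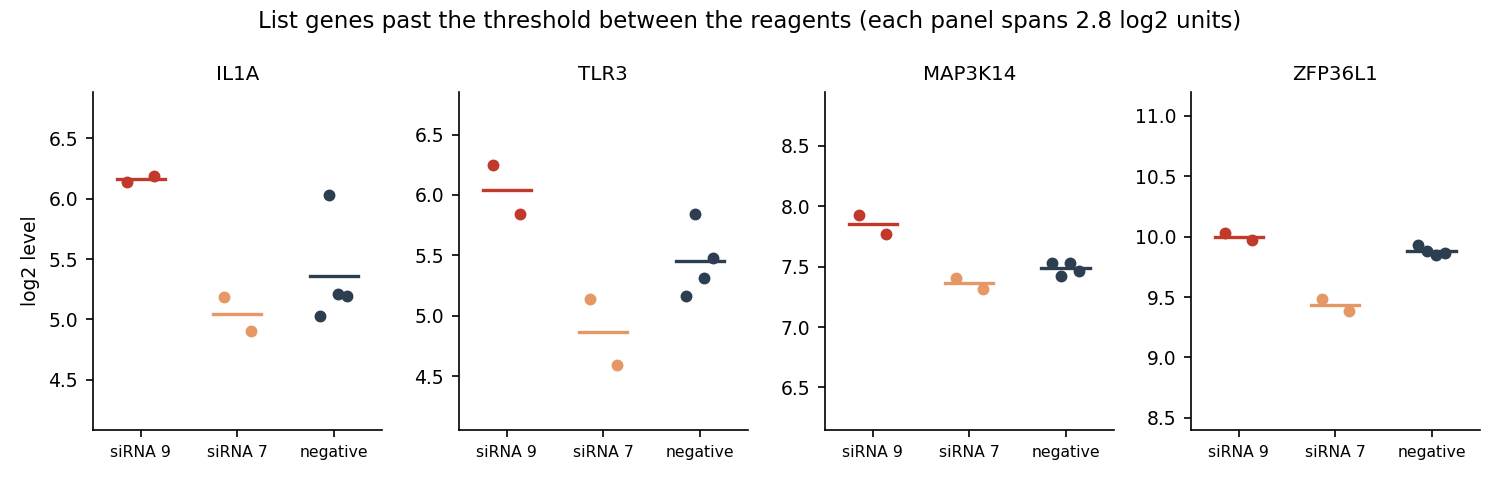
Log2 level on each of the 8 arrays of the 4 list genes past the threshold between siRNA 9 and siRNA 7; points are arrays and bars are group means. For IL1A and TLR3, 1 negative array, array 2, lies near the siRNA 9 level, while MAP3K14 separates siRNA 9 from the rest and ZFP36L1 separates siRNA 7 from the rest.

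The genes whose levels followed CCL24 most closely over the 8 arrays, among 694 probe sets with an SD of at least 0.3, were DAPL1 (Pearson r 0.981), OLFML2B (0.981), FAXDC2 (0.980), TENT5C (0.975) and ZNF367 (0.975). These correlations describe arrays that fall into separate levels, with siRNA 9 apart, and over the 6 arrays without siRNA 9 they were 0.591, 0.807, 0.519, 0.754 and 0.608. The other members had r of -0.77 (CXCL1) to 0.71 (CCL28) with CCL24.

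Marker lists of the cell types that the samples could hold gave close mean levels in the 3 groups. The mean log2 level of 10 epithelial markers was 11.32 to 11.42 with siRNA 9, 11.35 to 11.42 with siRNA 7 and 11.38 to 11.52 with negative siRNA. For 7 measured of 8 gastric mucous markers it was 8.80 to 8.85 with siRNA 9, 8.71 to 8.82 with siRNA 7 and 8.67 to 8.89 with negative siRNA. For 10 measured of 12 leukocyte markers it was 6.57 to 6.62 with siRNA 9, 6.50 to 6.55 with siRNA 7 and 6.42 to 6.72 with negative siRNA. With negative siRNA, PTPRC, the pan-leukocyte CD45, averaged 4.25, and the brightest of that list were LYZ at 11.57 and CD68 at 9.11. For 10 fibroblast and endothelial markers the mean level was 6.50 to 6.53 with siRNA 9, 6.37 to 6.60 with siRNA 7 and 6.42 to 6.57 with negative siRNA. In none of these lists did a gene pass the threshold. The smallest p of the epithelial list was that of CDH1, which encodes E-cadherin, at a log2 difference of -0.38 with siRNA 9 (limma adjusted p = 0.0711), and in the fibroblast and endothelial list that of LUM, which encodes lumican, at -0.37 (limma adjusted p = 0.229). CD68 differed by 0.14 with siRNA 9 and 0.19 with siRNA 7. The part of other cell types in the CCL24 level was not tested.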

How the data were processed

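RNA of 8 HSC39 samples was measured on Human Gene 1.0 ST arrays. The deposited table holds 1 log2 level for each probe set and array. The submitters' processing notes name limma. Their summarisation and normalization are not stated in the sources used here, nor are a genome build or filters. After sorting, arrays differed by no more than 0.180 at any rank. Symbols came from the platform annotation. Of 32321 probe sets, 19158 with 1 symbol were tested without a filter on dim ones. Those with several symbols (1388) or none (11775) were left out. Groups followed the sample titles. Fits of 3 group means, and of 2 groups with both reagents joined, used limma 3.58.1 in R 4.3.3 (moderated test, 2-sided, Benjamini-Hochberg over 19158, threshold 0.05), and were tested on simulated data. A simulated log2 change of 1 was recovered in 95% (siRNA 9 minus negative), 92% (siRNA 7 minus negative) and 89.5% (siRNA 9 minus siRNA 7) of 200 changed probe sets. For a change of 0.5 these were 30.5%, 17.5% and 0%, so most changes of that size or smaller would not be called. Members and lists were chosen with earlier results of these data known. The rule named TRIM44, all members and receptors, 3 genes of every other pathway list by the 3-group F test, and 5 genes by correlation with CCL24; single marker genes, the genes named for passing without negative array 2, and RHBDD2 and the other neighbours of CCL24, were chosen after their values were seen. Where a gene had several probe sets, that of highest mean was used. Alternatives were quantile normalization, median centring, probe sets of the upper 50% by mean, all probe sets, a trended and robust prior, array weights, a replicate block, only the arrays compared, 3 group means and each array left out. Counts of list genes under these settings were added after seeing the data. Promoters came from RefSeq.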

Additional observations from a re-analysis of the deposited data

Results flagged for a closer look

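Between siRNA 9 and siRNA 7, 4 of 91 measured pathway list genes passed the limma threshold, against 2.23% of all probe sets. Of the 9 members other than CCL24, 0 passed. The log2 difference between siRNA 9 and siRNA 7 was 1.24 for CCL24, which is a description because the gene was chosen from the siRNA 9 arrays. It was 0.49 for MAP3K14, 1.12 for IL1A, 1.18 for TLR3 and 0.56 for ZFP36L1, each past the limma threshold for the difference between the reagents. For these 4 genes the call depended on the arrays left out and on the processing: IL1A passed in 4 of 15 other settings, TLR3 in 11 of 15, MAP3K14 in 9 of 16 and ZFP36L1 in 12 of 16. A Dixon check for a single outlying array flagged 0 of the 30 groups of 4 arrays that were checked. With only 4 arrays in a group, this result does not show that no array lay apart. For IL1A, negative array 2, at 6.03, stood above the other negative arrays, at 5.03 to 5.21.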

How the results depend on the processing

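The siRNA 9 minus negative log2 difference of CCL24 stayed between 1.06 and 1.38 with each array left out and between 1.20 and 1.31 otherwise. Counts of probe sets called by limma moved more. For siRNA 9 minus negative the count was 177, and it was 390 over the upper 50% by mean, 28 over all probe sets, 405 with a trended and robust prior, 2082 with array weights, and 0 to 1067 with an array left out (0 without either siRNA 9 array, 1067 without negative array 2). For siRNA 7 minus negative it was 13, and 1 after median centring, 64 over the upper 50%, 0 over all probe sets, 83 with the prior, 70 with array weights, 1 on only the arrays compared, and 1 to 35 with an array left out. For siRNA 9 minus siRNA 7 it was 428, and 703, 8, 792, 1063 and 807 for the upper 50%, all probe sets, the prior, array weights and only the arrays compared, and 0 to 1050 with an array left out (0 without either siRNA 9 array, 1050 without negative array 2). With both reagents as 1 condition it was 1, and 0 after median centring, 2 over the upper 50%, 0 over all probe sets, 2 with the prior, 33 with array weights, 4 from 3 group means, and 0 to 2 with an array left out. Where limma called 0, between 592 and 2003 probe sets were under 0.05 unadjusted. The cause of these shifts was not tested.

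Of the 9 members other than CCL24, 0 were called for siRNA 9 minus negative, and 1 with array weights, CXCL8 at 0.53 (limma adjusted p = 0.0330). That fit called 2082 of all 19158 probe sets. The other comparisons were siRNA 7 minus negative, siRNA 9 minus siRNA 7 and both reagents as 1 condition. There, every setting that kept at least 2 arrays in each group called 0 of the 9 members. With no setting changed, 0, 2 and 0 of the 9 had an unadjusted limma p under 0.05 in that order. The shares of all probe sets were 7.46%, 15.7% and 5.43%. The upper 50% by mean holds CXCL16 alone of the members.

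Whether replicate numbers pair the samples could not be told from these arrays. Same-numbered arrays had correlations of 0.02 to 0.31 of their deviations from the group means. These cover only 2 numbers, and with 2 arrays of each reagent the deviations of a reagent mirror each other. With the replicate block the calls were 44 for siRNA 9 minus negative, 0 for siRNA 7 minus negative and 0 with both reagents as 1 condition, and the log2 difference of CXCL5 turned to 0.11 with siRNA 9, CCL24 to 0.066 with siRNA 7, and CCL28 to -0.025 and CXCL2 to 0.065 with both.

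Directions near 0 also turned elsewhere. For siRNA 9 minus negative, CXCL3 was -0.00078 after quantile normalization and -0.0046 with array weights; with an array left out CCL20 ran from -0.16 to 0.32, CXCL3 from -0.017 to 0.050 and CXCL5 from -0.14 to 0.046. For siRNA 7 minus negative, CCL24 was 0.018 with array weights; with an array left out CCL24 ran from -0.10 to 0.048, CX3CL1 from -0.0045 to 0.098, CXCL16 from -0.39 to 0.0079, CXCL2 from -0.29 to 0.13, CXCL3 from -0.099 to 0.069 and CXCL5 from -0.022 to 0.21. For siRNA 9 minus siRNA 7, CXCL16 was -0.0037 after quantile normalization and -0.011 after median centring; with an array left out CCL20 ran from -0.33 to 0.14, CXCL16 from -0.19 to 0.21, CXCL2 from -0.058 to 0.36, CXCL3 from -0.050 to 0.12 and CXCL8 from -0.15 to 0.26. With both reagents as 1 condition, CXCL3 was -0.0086 after quantile normalization, -0.00035 after median centring and -0.020 with array weights, where CXCL1 was -0.019 and CXCL5 -0.020; with an array left out CCL28 ran from -0.036 to 0.10, CXCL1 from -0.048 to 0.074, CXCL2 from -0.062 to 0.095, CXCL3 from -0.034 to 0.035 and CXCL5 from -0.082 to 0.11.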
